A study of Mus musculus with 2 samples.

Results

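Messenger RNA of 10 genes of the Hif1a pathway was described in CH12.LX, a line of B cell lymphoma cells of the mouse. The genes were taken by symbol from the 43346 Ensembl entries that both deposited gene tables hold, and all 10 were found. They are the transcription factor subunit Hif1a, 4 genes that sense oxygen or act on its signal (Egln1, Egln2, Egln3 and Vhl), and 5 genes that Hif1a is known to induce (Bnip3, P4ha1, Vegfa, Ddit4 and Car9). The series holds 1 group, CH12.LX cells of strain B10.H-2aH-4bp/Wts, sequenced as 2 single-end libraries of polyadenylated RNA. The labels give these as biological replicates 1 and 2 and tie each to its own biosample. They name no treatment, genotype or oxygen level for either culture, so the values are those of the line as grown, and no comparison between conditions exists. CH12.LX is 1 established line. Each biosample has 1 library, so the spread between replicates cannot be divided between biosample and library.

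HIF is a pair of proteins, an oxygen-regulated alpha subunit such as Hif1a and a constitutive partner such as Arnt. When oxygen is present, the Egln prolyl hydroxylases mark the alpha subunit, the Vhl ubiquitin ligase binds the mark, and the proteasome destroys the protein. When oxygen is scarce the alpha subunit is spared, enters the nucleus and turns on genes for glycolysis, blood vessel growth, acid-base balance, matrix synthesis and removal of mitochondria. This control acts on the Hif1a protein, and mRNA levels do not measure it. Egln3 and, in many cells, Egln1 are themselves HIF targets, whereas Egln2 is not counted among them. In B cells, Hif1a is known for its part in the low-oxygen environment of germinal centres and in glycolysis.

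Replicate 1 held 22996547 expected counts and replicate 2 held 25715408. Expected counts are estimated read counts that need not be whole, and TPM is the length-corrected level within a library, as a share of all transcripts. All 6 B cell markers examined were detected, which here means at least 1 TPM in both libraries. Cd79b, a signalling chain of the B cell receptor, had 525 TPM in replicate 1 and 545 TPM in replicate 2. Among markers of other cell types, 0 of 3 stromal, 1 of 3 epithelial, 1 of 3 myeloid, 2 of 3 T cell, 2 of 4 endothelial and 1 of 2 erythroid markers were detected. The summed TPM of each of those lists was under that of the B cell markers, which was 1431 in replicate 1 and 1549 in replicate 2. The highest was the endothelial sum of 15.8 and 15.1 TPM, of which Pecam1, an adhesion molecule that B cells also carry, gave 14.7 and 14.1 TPM.

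Of the 10 genes, 8 were detected, against 10317 (48.0%) of the 21474 protein-coding genes measured. The undetected genes were Egln3 and Car9. In bulk RNA, fewer cells with a transcript and less of it per cell cannot be told apart. The detected genes fell into a narrow band with 1 exception. Egln2 stood at 93.6 ± 12.3 TPM (mean ± SD, n = 2), above 92.9% of protein-coding genes. The other 7 detected genes had means between 12.0 and 29.5 TPM, around the median of 21.03 TPM of the detected protein-coding genes. In descending order of mean TPM they were P4ha1, Ddit4, Hif1a, Egln1, Bnip3, Vhl and Vegfa. The ranges of P4ha1 and Ddit4 overlapped, as did those of Egln1 with Bnip3 and Vhl and those of Vegfa with Bnip3 and Vhl, so the order within each of these sets lies within the spread of the replicates. Hif1a lay below both values of Ddit4 and above both values of Egln1.

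**Figure D1:**
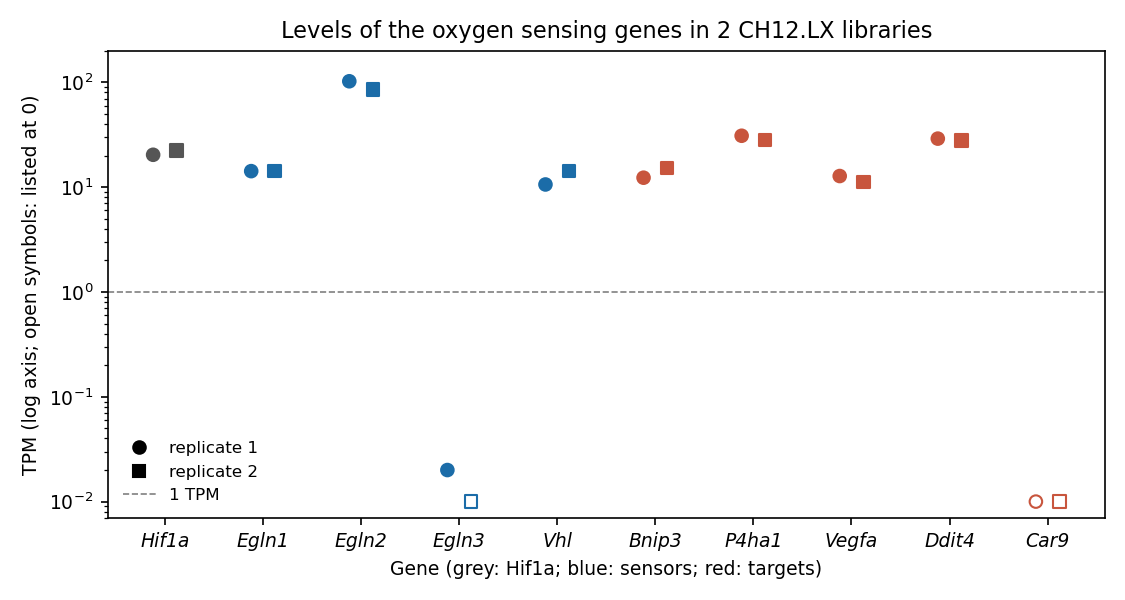
TPM (log axis) of the 10 genes in replicates 1 and 2 of CH12.LX, 1 point per library and open symbols for a value of 0, ordered by role with the transcription factor first, then sensors, then targets. Egln2 lies above all others at 102 and 85.0 TPM, 7 genes lie between 10.6 and 30.9 TPM, and Egln3 and Car9 lie at the bottom.

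Hif1a (ENSMUSG00000021109, chr12:73901375-73947530, plus strand, mm10) had 20.4 TPM in replicate 1 and 22.3 TPM in replicate 2, from 1485 and 1832 expected counts. The intervals that the deposited tables give for TPM, whose level is not stated there, ran over 18.3 to 20.9 and 20.3 to 22.7. Its mean of 21.3 ± 1.40 TPM (SD, n = 2) was above 76.1% of protein-coding genes. Arnt, its constitutive partner, stood at a like level with 19.2 and 20.3 TPM, so that the ratio of Hif1a to Arnt was 1.06 in replicate 1 and 1.10 in replicate 2. The alternative subunits were scarce. Epas1, the alpha subunit best known from endothelium, had 0.13 and 0.11 TPM, Hif3a had 0.41 and 0.35 TPM, and Arnt2, the neuronal partner, had 0.16 and 0.20 TPM. Hif1a thus made up 97.4% and 98.0% of the summed TPM of the 3 alpha subunit genes.

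Both main Hif1a transcripts were present in the same proportion in the 2 libraries. Hif1a-201, with 836 codons, took 65.1% of the gene's TPM in replicate 1 and 66.3% in replicate 2. Hif1a-202, with 810 codons, took 32.0% in each. They begin at different first exons. That of Hif1a-201 spans chr12:73907904-73908324 and carries 35 coding bases, whereas that of Hif1a-202 spans chr12:73901375-73901498 and carries none. They also differ by a coding segment of 42 bases at chr12:73941688-73941729 (plus strand, GRCm38, the assembly of mm10), printed below as the stretch that separates the 2 proteins inside the shared exons. Transcripts with this segment took 67.0% and 67.5% of the TPM of the coding transcripts that span it.
Hif1a-201 segment: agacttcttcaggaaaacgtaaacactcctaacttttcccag
The split is an estimate from short single-end reads. Its posterior standard deviation was 90.6 reads for Hif1a-201 in replicate 1 and 111 reads in replicate 2, beside posterior mean counts of 1010 and 1237.

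Among the 4 sensor genes, Egln2 dominated. Egln2 (ENSMUSG00000058709, chr7:27158658-27166802, minus strand) encodes a prolyl hydroxylase of the nucleus and had 102 TPM in replicate 1 and 85.0 TPM in replicate 2, from 2931 and 2615 expected counts. The deposited intervals, 91.6 to 100.9 and 76.3 to 84.6 TPM, belong to a second, posterior estimate and lie below these values in both libraries. Egln1 (ENSMUSG00000031987, chr8:124908587-124949324, minus strand), the hydroxylase that limits HIF in most tissues, had 14.2 and 14.3 TPM, from 809 and 902 expected counts. Its 2 values lay closer together than those of any other detected member, with a mean of 14.2 ± 0.0283 TPM (SD, n = 2). The ratio of Egln2 to Egln1 was 7.20 in replicate 1 and 5.96 in replicate 2, and Egln2 made up 87.8% and 85.6% of the TPM of the 3 Egln genes.

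Egln3 (ENSMUSG00000035105, chr12:54178981-54203860, minus strand), the hydroxylase whose gene responds most strongly to hypoxia in many cell types, had 1 expected count in replicate 1 and 0 in replicate 2. A total of 1 count over both libraries allows a level of 0.000279 to 0.0614 TPM (exact Poisson 95% interval, counting error only). The start regions of Egln2 and Egln3, the highest and the lowest of the Egln genes, are printed to show the HIF core letters they hold. Each window runs from 250 bases before to 50 bases after the RefSeq start (GRCm38.p6). Capitals mark the 5-base core of the hypoxia response element, ACGTG or GCGTG on the printed strand, or CACGT or CACGC where the core lies on the opposite strand. A palindromic CACGTG counts as 1 core on each strand. The Egln2 window is chr7:27166753-27167052 (minus strand) with 6 cores, and the Egln3 window is chr12:54203825-54204124 (minus strand) with 1 core, 229 bases before the start.
Egln2 start region: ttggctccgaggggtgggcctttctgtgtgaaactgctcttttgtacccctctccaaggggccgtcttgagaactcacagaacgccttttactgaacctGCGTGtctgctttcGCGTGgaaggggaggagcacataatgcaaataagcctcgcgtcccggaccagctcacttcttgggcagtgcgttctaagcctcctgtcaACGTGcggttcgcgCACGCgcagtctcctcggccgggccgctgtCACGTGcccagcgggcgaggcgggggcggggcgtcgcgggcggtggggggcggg
Egln3 start region: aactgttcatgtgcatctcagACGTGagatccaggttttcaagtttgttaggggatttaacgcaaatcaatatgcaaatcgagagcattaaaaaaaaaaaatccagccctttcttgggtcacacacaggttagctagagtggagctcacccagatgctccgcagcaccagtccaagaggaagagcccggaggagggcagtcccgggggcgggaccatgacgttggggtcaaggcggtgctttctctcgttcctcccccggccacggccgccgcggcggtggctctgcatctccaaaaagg
The letters show no more than that the motif occurs there, since binding was not measured.

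The other oxygen-dependent dioxygenases were present as well. Hif1an, the asparagine hydroxylase that blocks HIF from its coactivators, had 20.8 TPM in replicate 1 and 21.5 TPM in replicate 2, more than Egln1 in both. Ado, a thiol dioxygenase that marks proteins with an exposed cysteine for destruction, had 7.0 and 7.59 TPM, and P4htm, a hydroxylase of the endoplasmic reticulum membrane, had 7.35 and 5.84 TPM. In all, 5 of the 6 dioxygenase genes examined were detected, and Egln3 was the exception.

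Egln2 was also the sensor with the most mixed transcript picture. Egln2-201, with 419 codons, took 79.6% of the gene's TPM in replicate 1 and 73.3% in replicate 2. Egln2-204, a noncoding model of 439 bases, took 13.9% and 15.8%. In estimated reads the leading transcript weighed more, with 94.1% and 89.7% of the gene's counts, because short models gain TPM from few reads. Vhl was nearly all Vhl-201, with 100% and 96.2% of its TPM, and Egln1 and Egln3 have a single transcript each in the tables.

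Vhl (ENSMUSG00000033933, chr6:113623959-113631633, plus strand), the subunit that recognises hydroxylated HIF, had 10.6 TPM in replicate 1 and 14.3 TPM in replicate 2, from 478 and 696 expected counts. Its mean was 12.5 ± 2.63 TPM (SD, n = 2). All 5 subunits of its ligase were detected, and Vhl was the scarcest mRNA of the set. The adaptor subunits Eloc and Elob had 273 and 199 TPM in replicate 1 and 228 and 222 TPM in replicate 2. Cul2, the scaffold, had 50.2 and 39.8 TPM, and the RING subunit Rbx1 had 43.9 and 49.9 TPM. The ratio of Elob to Vhl was 18.8 in replicate 1 and 15.5 in replicate 2. These partners also serve other complexes. The start region of Vhl, chr6:113623744-113624043 (plus strand), held 0 cores.

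All 7 further regulators of HIF turnover and activity were detected. Hsp90ab1, a chaperone that holds Hif1a, had 3964 TPM in replicate 1 and 3568 TPM in replicate 2. Rack1, a ribosomal scaffold that competes with the chaperone for Hif1a, had 3359 and 2748 TPM. Cited2, which competes with HIF for its coactivators, had 84.3 and 109 TPM, well above the coactivators themselves, since Ep300 had 14.6 and 16.2 TPM and Crebbp had 5.29 and 6.65 TPM. Siah2, a ligase that removes hydroxylases of the Egln family, had 76.7 and 76.6 TPM, and its relative Siah1a had 5.06 and 5.46 TPM.

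P4ha1 (ENSMUSG00000019916, chr10:59323296-59373304, plus strand) had the highest mean of the 5 targets, with Ddit4 within the spread of the replicates. It encodes a catalytic subunit of collagen prolyl hydroxylase and had 30.9 TPM in replicate 1 and 28.2 TPM in replicate 2, from 1433 and 1447 expected counts. It supplied 90.2% and 91.3% of the TPM of the 3 catalytic subunit genes, with P4ha2 at 3.27 and 2.66 TPM and P4ha3 at 0.07 and 0.03 TPM. P4hb, the shared partner that is also an abundant disulphide isomerase, had 518 and 481 TPM, which was 16.8 and 17.1 times the level of P4ha1. The collagen genes Col1a1 and Col1a2 were among the stromal markers not detected.

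The 3 P4ha1 transcripts differ in an exon present in 1 of 2 versions. P4ha1-203 and P4ha1-202 carry the exon chr10:59355350-59355420, and P4ha1-201 carries the exon chr10:59354340-59354410. Transcripts with the first version took 92.3% of the TPM in replicate 1 and 88.9% in replicate 2, and the transcript with the second version took 7.70% and 11.1%. Both exons have 71 bases and are printed from the plus strand of GRCm38. Capitals mark the 42 bases (59.2%) that are the same at the same place in both.
P4ha1-203 and P4ha1-202 exon: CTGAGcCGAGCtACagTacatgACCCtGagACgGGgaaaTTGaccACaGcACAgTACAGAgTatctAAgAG
P4ha1-201 exon: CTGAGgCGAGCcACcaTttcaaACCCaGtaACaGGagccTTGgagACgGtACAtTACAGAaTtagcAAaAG
An exon of 240 bases at chr10:59348181-59348420 is absent from P4ha1-202, and transcripts that hold it took 74.6% and 65.6%. P4ha1-203 led with 66.9% and 54.5%, followed by P4ha1-202 with 25.4% and 34.4%.

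Ddit4 (ENSMUSG00000020108, chr10:59949669-59951834, minus strand), which restrains mTORC1 through the TSC complex under stress, had 29.0 TPM in replicate 1 and 28.0 TPM in replicate 2, from 782 and 839 expected counts. Its mean of 28.5 ± 0.721 TPM (SD, n = 2) was above 80.1% of protein-coding genes. All 10 genes examined on its route to mTORC1 were detected. Rheb, the GTPase that TSC switches off, had 31.4 and 33.2 TPM, Tsc2 had 15.9 and 19.3 TPM, Mtor had 18.7 and 21.4 TPM, and Rptor had 22.0 and 24.4 TPM. Ddit4l, the paralogue of Ddit4, was lower than Ddit4 in both libraries with 7.96 and 8.28 TPM.

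Bnip3 (ENSMUSG00000078566, chr7:138890836-138909519, minus strand), a receptor that tags mitochondria for autophagy, had 12.3 TPM in replicate 1 and 15.2 TPM in replicate 2, from 346 and 421 expected counts. Its paralogue Bnip3l, with the same known role and known for clearing mitochondria from red blood cell precursors, had 103 and 84.5 TPM, which was 8.41 and 5.55 times the level of Bnip3. All 6 mitophagy receptors examined were detected. Phb2 of the inner membrane had 484 and 513 TPM, Fkbp8 had 138 and 130 TPM, and Fundc1, a receptor linked to hypoxia, had 27.5 and 25.2 TPM.

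The higher TPM of Bnip3 in replicate 2 lay on a minor transcript. Bnip3-201, with 187 codons, had 12.3 TPM in both libraries. Bnip3-203, with 173 codons, took 0% of the gene's TPM in replicate 1 and 19.1% in replicate 2, from 0 and 35.8 estimated reads. In the posterior estimate it took 7.15% and 15.3%. The Bnip3 start region, chr7:138909457-138909756 (minus strand), is shown because it held the most cores of any target, 5 in all, of which 4 lie between 117 and 99 bases before the start.
Bnip3 start region: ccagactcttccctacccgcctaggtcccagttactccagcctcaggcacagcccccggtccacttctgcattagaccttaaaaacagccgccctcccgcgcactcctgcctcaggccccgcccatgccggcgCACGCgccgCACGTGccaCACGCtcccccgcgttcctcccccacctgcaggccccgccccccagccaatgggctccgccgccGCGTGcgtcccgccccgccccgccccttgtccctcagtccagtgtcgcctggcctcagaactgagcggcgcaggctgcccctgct
The P4ha1 start region, chr10:59323046-59323345 (plus strand), held 3 cores and is shown beside it as that of the target with the highest mean.
P4ha1 start region: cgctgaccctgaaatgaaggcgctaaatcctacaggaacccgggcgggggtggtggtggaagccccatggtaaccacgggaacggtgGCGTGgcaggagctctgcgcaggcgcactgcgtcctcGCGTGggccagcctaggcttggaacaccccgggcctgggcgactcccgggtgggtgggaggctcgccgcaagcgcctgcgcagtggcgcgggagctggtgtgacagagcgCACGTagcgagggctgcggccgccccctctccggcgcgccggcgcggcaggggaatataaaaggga

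Vegfa (ENSMUSG00000023951, chr17:46016993-46032369, minus strand), the main growth factor for blood vessels, had 12.8 TPM in replicate 1 and 11.2 TPM in replicate 2, from 470 and 489 expected counts. Its mean was 12.0 ± 1.07 TPM (SD, n = 2). Vegfb, its relative with a weaker role in vessel growth, was higher with 22.0 and 25.8 TPM. Of 10 VEGF ligands and receptors, 4 were detected, namely Vegfa, Vegfb and the coreceptors Nrp2, with 17.8 and 18.0 TPM, and Nrp1, with 4.59 and 5.0 TPM. The signalling receptors Flt1 and Kdr were not, with 0.66 TPM in both libraries for Flt1 and with 0.01 and 0 TPM for Kdr. In the posterior estimate Flt1 had 1.25 and 1.08 TPM, which would count as detected. Its counts were the same in both estimates, 64 in replicate 1 and 81 in replicate 2.

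The leading Vegfa transcript was a short one. Vegfa-201, with 146 codons, took 48.1% of the gene's TPM in replicate 1 and 54.6% in replicate 2. Vegfa-202, with 368 codons and a longer first exon, took 23.0% and 22.7%. Vegfa-201 lacks a stretch of 132 bases at chr17:46020991-46021122 (minus strand, GRCm38), which codes for part of the region by which longer forms bind heparin and neuropilins. Transcripts with the stretch took 28.9% and 30.5% of the TPM of the coding transcripts that span it. The stretch is printed because it separates Vegfa-201 from Vegfa-202, although Vegfa-203, with 170 codons, lacks it too.
Vegfa segment: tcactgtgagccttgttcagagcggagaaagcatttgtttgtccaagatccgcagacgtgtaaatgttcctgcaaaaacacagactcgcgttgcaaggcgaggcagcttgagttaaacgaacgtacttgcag
Of the 11 annotated transcripts 8 had a TPM above 0 in at least 1 library. In the posterior estimate Vegfa-201 took 41.4% and 44.7% and Vegfa-202 took 13.7% and 12.9%.

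**Figure D2:**
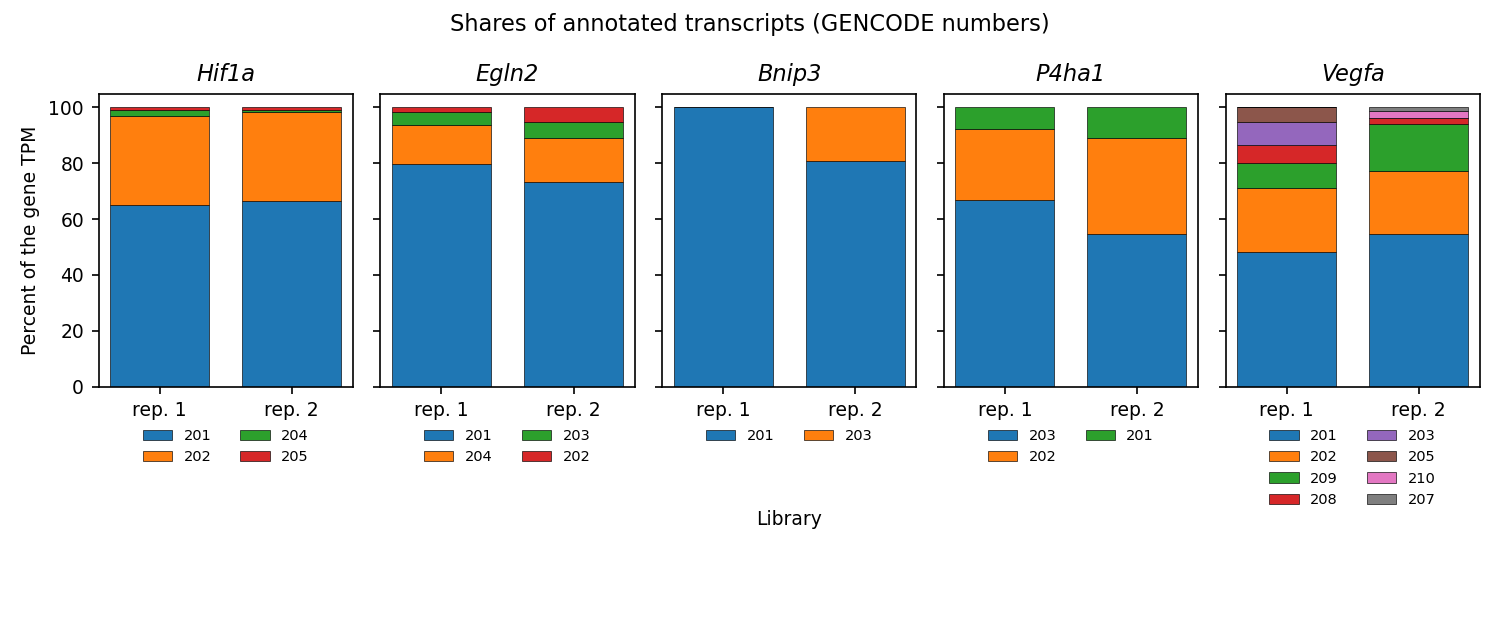
Percent of each gene's TPM on its annotated transcripts in replicates 1 and 2, for Hif1a, Egln2, Bnip3, P4ha1 and Vegfa. Vhl, with 100% and 96.2% on Vhl-201, is not drawn. Hif1a keeps 65.1% and 66.3% on Hif1a-201, whereas Bnip3-201 has 100% in replicate 1 and 80.9% in replicate 2.

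Car9 (ENSMUSG00000028463, chr4:43506966-43513729, plus strand), the cell surface carbonic anhydrase used as a marker of hypoxic tumours, had 0 expected counts in both libraries. A count of 0 allows up to 3 counts over the 2 libraries, or 0.106 TPM, at the length the tables assign to it. The exact Poisson 95% interval used for Egln3 gives an upper limit of 0.131 TPM here. Of 16 carbonic anhydrase genes, 3 were detected. Car12, another cell surface form, had 22.2 TPM in replicate 1 and 25.4 TPM in replicate 2, the cytosolic Car13 had 15.9 and 17.1 TPM, and Car15 had 1.01 and 1.51 TPM. Car12 and Car13 together gave 89.8% and 91.0% of the TPM of the family. The start region of Car9, chr4:43506776-43507075 (plus strand), is printed since it belongs to a target at 0 and yet holds 1 core, 18 bases before the start.
Car9 start region: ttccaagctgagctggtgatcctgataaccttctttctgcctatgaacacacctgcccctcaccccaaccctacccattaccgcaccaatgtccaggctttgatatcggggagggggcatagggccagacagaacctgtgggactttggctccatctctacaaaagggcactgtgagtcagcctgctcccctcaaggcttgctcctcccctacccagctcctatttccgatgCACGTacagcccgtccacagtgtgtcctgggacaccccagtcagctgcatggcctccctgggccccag

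Motif letters were common in these start regions. In the RefSeq table all 10 members had an entry, with 12 windows, since Egln2 and Vegfa have 2 each. The second windows, Egln2 at chr7:27165679-27165978 and Vegfa at chr17:46025114-46025413, lie inside the genes. They lie past the first exons of Egln2-201 (chr7:27166684-27166802) and Vegfa-201 (chr17:46031291-46031815). Both hold a core and enter the shares below. The starts of Vegfa-201 and of Hif1a-202 had no window. A core stood in 10 of the 12 windows (83.3%), against 14380 of all 32851 windows of the same length (43.8%), and 4 of 12 (33.3%) held at least 3 cores, against 2934 (8.93%) of all windows. In the 2 wider lists of HIF targets, 38 of the 46 genes had an entry in the table under their symbol, and 47 of their 59 windows (79.7%) held a core. These shares are descriptions, since the genes were picked for a known tie to HIF. Every core holds the letters CG, and the windows compared were not matched for CG content or for level. The part of base composition in the shares was not tested. Hif1a held 3 cores, Egln1 and Ddit4 held 2 each, and the Vegfa windows held 0 and 2. Genes of like level differed in cores, as Bnip3 with 5 cores averaged 13.8 TPM and Vhl with 0 cores averaged 12.5 TPM, and Car9 with 1 core had no read.

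**Figure D3:**
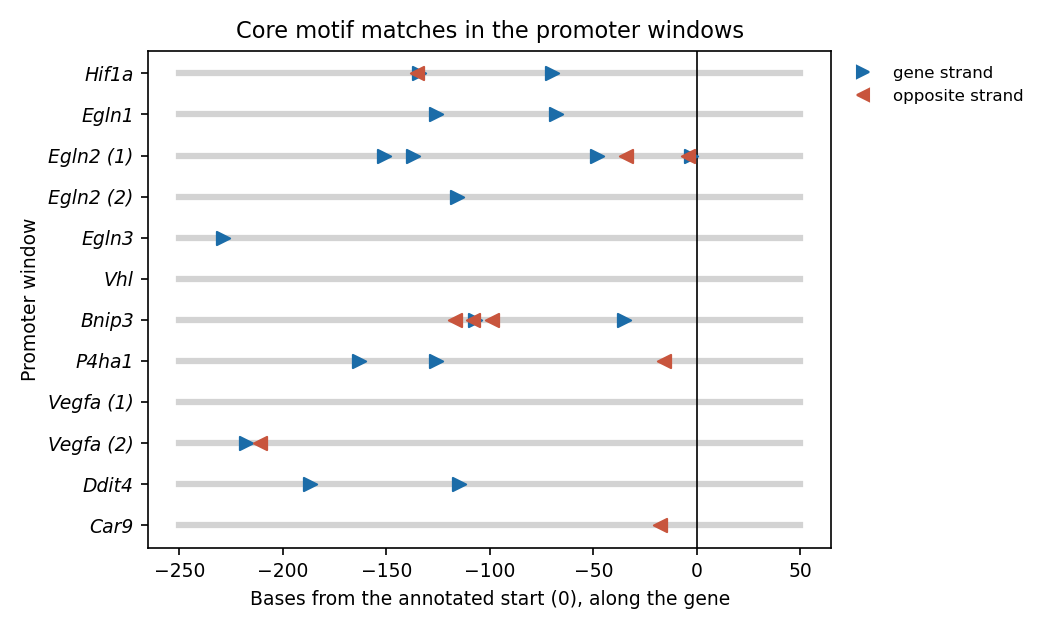
Position of each 5-base core in the start regions of the 10 genes, in bases from the RefSeq start, with cores on the same strand and on the opposite strand marked apart. The first Egln2 window holds 6 and Bnip3 5, whereas Vhl and the first Vegfa window hold 0. The second windows of Egln2 and Vegfa lie inside the genes.

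Set against each other within each library, sensors summed to more TPM than targets. The 4 sensors summed to 127 TPM in replicate 1 and 114 TPM in replicate 2 (120 ± 9.62, SD, n = 2), and the 5 targets summed to 85.0 and 82.6 TPM (83.8 ± 1.68). The ratio was 1.5 in replicate 1 and 1.37 in replicate 2, a mean of 0.52 ± 0.0866 on the log2 scale. This order rests on Egln2. Without it, a setting chosen after seeing the data, the sensors summed to 24.8 and 28.6 TPM, and the ratio was 0.292 and 0.346. The median sensor had 12.4 and 14.3 TPM, against 12.8 and 15.2 TPM for the median target. The ratio compares mRNA levels within a library and says nothing of hydroxylase activity.

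**Figure D4:**
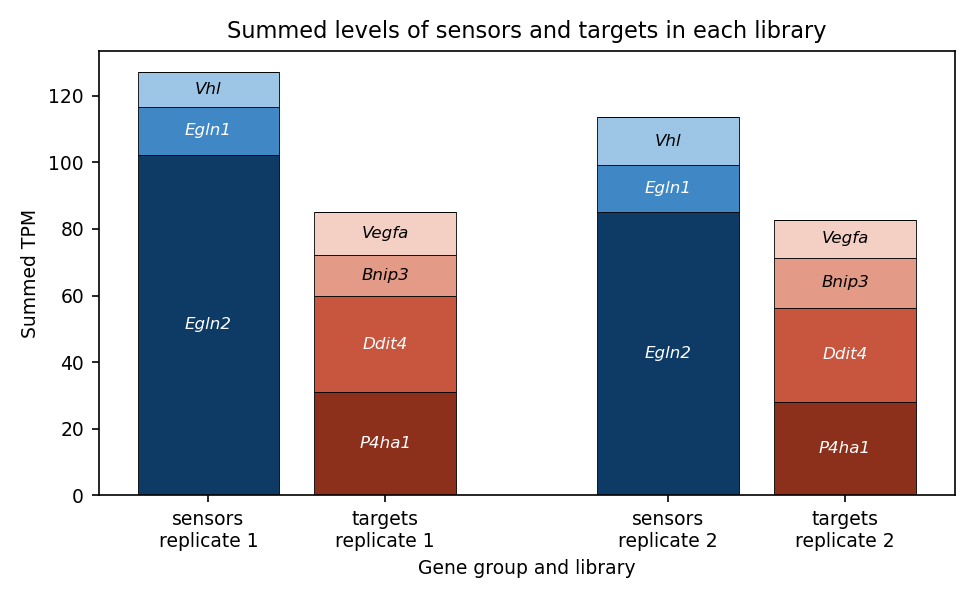
Stacked TPM of the 4 sensors and of the 5 targets in replicates 1 and 2, with each gene as a segment of a bar that starts at 0. Sensors reach 127 and 114 TPM and targets 85.0 and 82.6 TPM, and Egln2 fills most of the sensor bars with 102 and 85.0 TPM.

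The wider lists of HIF targets divided by kind. All 20 glycolytic targets were detected, with a median of 140 TPM in replicate 1 and 121 TPM in replicate 2. Gapdh had 1742 and 1935 TPM, Pkm 1482 and 1307 TPM, Eno1 1456 and 1368 TPM, and Ldha 1102 and 1137 TPM. Several of these genes have near-identical pseudogene copies, so part of their reads may be assigned elsewhere. Of 26 non-glycolytic targets, which hold the 5 target members, 18 were detected (69.2%), with a median of 7.43 and 8.07 TPM over all 26. The highest were Tfrc, the transferrin receptor, with 144 and 140 TPM, Bnip3l, then Hmox1, which degrades haem, with 66.7 and 66.6 TPM, and Ero1l, an oxidase of protein folding, with 49.0 and 49.4 TPM. Epo, Lox, Plod2, Stc2 and Car9 had 0 counts in both libraries. Ndrg1, often used as a hypoxia marker, had 0.75 and 0.64 TPM, from 33 and 29 expected counts. The deposited posterior estimate was 2.49 and 2.06 TPM, which would count as detected. Its posterior mean counts, 31.6 and 28.8, were no higher than the expected counts, so the higher level rests on no further reads.

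Between the 2 libraries, Egln2 was higher in replicate 1, whereas Vhl and Hif1a were lower, in a background of many such differences. Each gene with at least 10 counts over both libraries was tested with an exact binomial test against effective library sizes, with Benjamini-Hochberg adjustment over all 15341 genes tested. This compares 2 libraries, not conditions, and called 4693 genes, or 30.6%, at an adjusted p under 0.05. Of the 8 members tested 3 were called, near that background. Egln2 was higher in replicate 1, by 0.30 on the log2 scale with a 95% interval of 0.22 to 0.38 and an adjusted p of 1.45e-13 in the exact binomial test. Vhl was lower in replicate 1, with a log2 ratio of -0.40 (-0.58 to -0.24) and an adjusted p of 1.74e-05 in the exact binomial test. Hif1a was lower in replicate 1, with a log2 ratio of -0.17 (-0.27 to -0.07) and an adjusted p of 0.00478 in the exact binomial test. All genes showed 15.9% called higher and 14.6% called lower in replicate 1.

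For the 5 members not called, the intervals bound the difference with regard to counting error only. The log2 ratio of replicate 1 over replicate 2 was 0.12 (0.02 to 0.23, adjusted p = 0.0700, exact binomial test) for P4ha1. It was 0.08 (-0.11 to 0.27) for Vegfa, 0.04 (-0.11 to 0.18) for Ddit4, -0.02 (-0.16 to 0.12) for Egln1 and -0.15 (-0.36 to 0.06) for Bnip3. With library totals in place of effective library sizes P4ha1 was called as well, at an adjusted p of 0.0241 in the exact binomial test, where 30.5% of all genes were called, 18.1% higher and 12.4% lower in replicate 1. Egln3 and Car9 had too few counts to test.

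When the spread between the libraries was taken into account, no member was called. The biological coefficient of variation, estimated by edgeR with both libraries as 1 group, was 19.8%. With that dispersion the negative binomial exact test called 389 genes (2.54%, with 1.86% higher and 0.671% lower in replicate 1) and 0 of the 8 members, of which 0 had an unadjusted p under 0.05 and the lowest was 0.332. The same 2 libraries set the spread and supply the difference, so this count is a description.

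**Figure D5:**
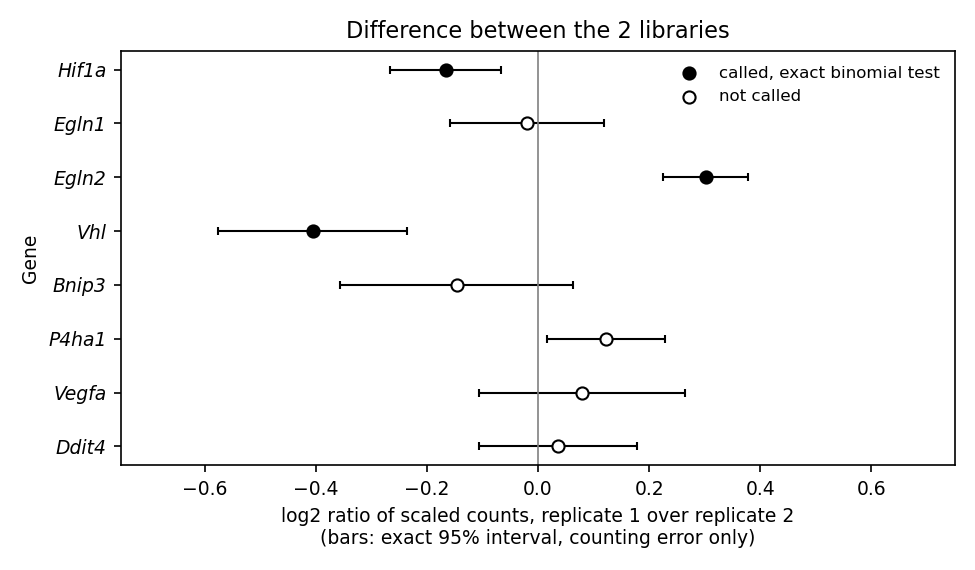
Log2 ratio of replicate 1 over replicate 2 for the 8 members tested, with exact binomial 95% intervals that hold counting error only. Egln2 at 0.30 lies above 0, Vhl at -0.40 and Hif1a at -0.17 lie below 0, and filled points are genes called by the test.

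Over the wider pathway, the share of genes called was near that of all genes, with more of them lower than higher in replicate 1. Across the 11 lists, 107 distinct genes were examined, of which 76 were detected and 88 were tested. The exact binomial test called 27 of the 88 (30.7%), against 30.6% of all genes. It called 10 of the 88 (11.4%) higher in replicate 1, against 15.9% of all genes, and 17 (19.3%) lower, against 14.6%. The negative binomial exact test, whose spread comes from the same 2 libraries, called 0 of the 88. The calls below are those of the exact binomial test, which allows for counting error only. Of the 5 ligase subunits 1 was called higher in replicate 1, Eloc, and 3 lower, Vhl, Elob and Rbx1, with a list median of -0.17 on the log2 scale, against -0.0016 over all genes. On the route from Ddit4 to mTORC1, 3 of 10 were called lower in replicate 1, namely Tsc2, Mtor and Rptor, and 0 higher. Of the regulators 1 of 7 was called higher and 4 lower. Cited2 had a log2 ratio of -0.38, with an adjusted p of 2.24e-24 in the exact binomial test and of 1 in the negative binomial exact test. Among 20 glycolytic targets, 6 were called higher and 3 lower in replicate 1, 1 of them Eno1, with a log2 ratio of -0.10 in counts but 0.09 in TPM. Of the 20 non-glycolytic targets tested, 0 were called higher and 2 lower, Car12 and Tfrc. For Tfrc, too, the scaled counts and TPM differ in sign, with a log2 ratio of -0.08 in counts and 0.04 in TPM. Rack1, among the 4 regulators called lower, likewise had -0.04 in counts and 0.29 in TPM. None of the 6 mitophagy receptors was called. All 6 B cell markers were also called lower in replicate 1, with a median log2 ratio of -0.15 and a summed level of 1431 TPM in replicate 1, against 1549 TPM in replicate 2. Their part in the lower counts of Hif1a and Vhl was not tested.

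Reads from neighbouring genes could touch 3 members, because the tables do not say whether strand was used in counting. Gm15283, antisense to Hif1a, had 7.02 expected counts in replicate 1 and 4.68 in replicate 2, beside 1485 and 1832 for Hif1a. Cyp2t4 overlaps Egln2 by 11 bases on the opposite strand and had 6 and 9 counts, beside 2931 and 2615 for Egln2. Gm12454, antisense to Car9, had 0 in both. The pseudogene Vhl-ps1 had 0 counts in both libraries.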

How the data were processed

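Single-end RNA-seq of polyadenylated RNA from 2 CH12.LX libraries was used, each with a gene and a transcript table that, per the file headers and deposited notes, the authors made from its transcriptome alignments on mm10 with the GENCODE M4 annotation. Which aligner and quantifier were used is not given in the sources used here. Expected counts, as deposited, are estimated reads, with reads that fit several genes shared out among those genes. Both TPM and FPKM, as deposited, are scaled by the authors for length and depth, and FPKM served as an alternative. Per the file headers, posterior mean counts and TPM are a second estimate, the bounds of the TPM interval were treated as a score because their level is not stated, and isoform values give each transcript's percent of the TPM of its gene.

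Symbols came from GENCODE M21 on GRCm38, which matched 42462 of 43346 Ensembl entries (98.0%). The transcript names, exons and coding lengths came from the same annotation, and the tables differ from it in length for Egln1-201, Ddit4-201 and Vegfa-211. A further 26345 entries without an Ensembl identifier held 0.0426% of counts in replicate 1 and 0.0539% in replicate 2 and stayed out of library sizes. Their share of TPM was larger, with 18256 TPM in replicate 1 and 22457 TPM in replicate 2, and the deposited TPM include them. The members and gene lists were chosen with earlier results of these data known. Named genes are all members, up to 4 of the highest genes per list, and list genes not detected. P4htm, Ep300, Crebbp, Siah1a, Tsc2 and Ddit4l were further list genes, named after their values were seen.

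Detection meant 1 TPM in both libraries. Expected counts were rounded, and genes with at least 10 counts over both libraries were compared by a two-sided exact binomial test against TMM library sizes (edgeR 4.0.16, scipy 1.17.1) with Benjamini-Hochberg adjustment at 0.05. The script was tested on simulated data. Log2 ratios used a pseudocount of 0.5. Intervals and the floor of 3 counts cover counting error only, since reads carry no molecular identifiers. Start regions came from RefSeq (GRCm38.p6). Alternatives were DESeq2 1.42.0 size factors, library totals, the negative binomial test, other detection limits, posterior estimates and each library alone.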

Additional observations from a re-analysis of the deposited data

How the results depend on the processing

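The excess of sensor over target TPM, 0.52 on the log2 scale, depended on how it was summed. With the median in place of the sum it was -0.066, with the Egln genes alone as sensors it was 0.36, and with each library alone it ranged between 0.46 and 0.58. Of the settings chosen after seeing the data, leaving out Egln2 gave -1.65 and the median without Car9 and Egln3 gave -0.57. The first of these follows from leaving out the gene with most of the sensor TPM. The value for the Egln genes alone follows from leaving out Vhl, which had 10.6 TPM in replicate 1 and 14.3 TPM in replicate 2. In the median, unlike the sum, the height of Egln2 above the other sensors carries no weight. Without Car9 and Egln3, which lie at or near 0, both medians rise, that of the targets more. The range with each library alone is that of the 2 replicates.

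The number of genes called between the libraries dropped to 389 under the negative binomial exact test, 286 higher and 103 lower in replicate 1, against 4693, 2446 and 2247 under the exact binomial test, because the first adds spread between the libraries to counting error. Members called then numbered 0, with 0 higher and 0 lower in replicate 1. With library totals, members called higher in replicate 1 numbered 2, as P4ha1 joined Egln2, and the log2 ratio of Egln1 changed sign to 0.0042 without being called. At 0.5 TPM, 5 carbonic anhydrases were detected rather than 3, whereas at 5 TPM, at 1 FPKM or with the posterior estimate 2 were. With the posterior estimate 5 VEGF ligands and receptors were detected and 19 non-glycolytic targets, against 4 and 18, and at 0.5 TPM the numbers were 6 and 19. At 5 TPM they were 3 and 15, and at 1 FPKM they were 4 and 17.

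With another estimate or scale, and without values whose SD was 0, 14 of 18 alternative levels and 6 of 12 alternative shares of the leading transcript moved by less than the SD of the replicates. Of 40 alternative differences, 35 kept their direction and side of the threshold. No paired analysis was possible because the series holds 1 group, so no replicate number is shared between groups. With 2 libraries, the SD has 1 degree of freedom. Depth limits the undetected genes to the bounds given, and shares of transcripts rest on short reads that several transcripts share.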

Other observations

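The deposited posterior estimate gave Car9 a level of 0.80 TPM in replicate 1 and 0.73 TPM in replicate 2, although the gene had 0 expected counts in both libraries. The tables list 7 transcripts for Car9, all at 0 TPM. For Egln1, with a single transcript, the posterior level averaged 13.4 TPM, against 14.2 TPM for the TPM used above. Ankrd37, a HIF target of the non-glycolytic list with no test passed, had 13.4 TPM in replicate 1 and 9.41 TPM in replicate 2, a log2 ratio in counts of 0.30 with an interval of -0.03 to 0.62. It was chosen after its values were seen.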
